A study of Mus musculus with 18 samples.

Results

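A set of 10 genes of the NRF2 antioxidant response was followed across 18 injured mouse kidneys. They were taken as a list of symbols, *Nfe2l2*, *Gclc*, *Gclm*, *Slc7a11*, *Gsr*, *Txnrd1*, *Srxn1*, *Nqo1*, *Hmox1* and *Osgin1*. No filter on their values was applied, but earlier results of these data were known. Each symbol matched 1 Ensembl gene, so that the list held 10 of the 45706 genes counted, of which 30346 had a count in any kidney. The whole-kidney libraries came from C57BL/6 mice of 2 cohorts, the first with 5 *Cxcl12* KO and 3 *Cxcl12* control mice and the second with 5 *Myc* KO and 5 *Myc* control mice. The mice were young adult male littermates homozygous for a floxed *Cxcl12* or a floxed *Myc* allele. All of them carried the Pax8rtTA transgene, which is active in tubule cells, and received doxycycline. KO mice also carried TetOCre, the recombinase that removes the floxed gene, and controls lacked it. Every kidney was taken 12 h after 22.5 min of bilateral ischemia, a clamp injury that starves the tubule of oxygen, and no uninjured kidney is among them. The comparisons asked how the injured kidney responds without *Cxcl12*, a chemokine, or without *Myc*, a transcription factor, in its tubules.

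NRF2, the protein made from *Nfe2l2*, is a transcription factor that KEAP1 hands over for degradation in resting cells. Oxidants and electrophiles modify KEAP1, NRF2 then accumulates, pairs with a small MAF protein and binds antioxidant response elements near its target genes. Its targets make and recycle glutathione, reduce thioredoxin and peroxiredoxins, break down heme and detoxify quinones, and in the kidney they are known for their part in the response to ischemia and reperfusion. NRF2 is regulated mainly through the stability of its protein, which mRNA counts do not show.

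The reads counted on genes ran from 12918220 to 29749500 in a kidney. In 6 kidneys under 5% of reads were unmapped (3.69% to 4.63%), and in the other 12 the share was 5.28% to 6.48%. The 6 kidneys, which were 2 KO and 0 control kidneys of the *Cxcl12* cohort and 2 of each genotype of the *Myc* cohort, also had more reads. This boundary was set with the shares in view, no label names it as a batch, and mean log2 CPM differences within the classes are given beside the results, with no test. As a check of the labels, *Cxcl12* was read in CPM, counts scaled to a common library size by TMM. Its level was 32.3 ± 6.07 CPM (SD) in the 5 *Cxcl12* KO kidneys against 53.5 ± 7.92 CPM (SD) in the 3 controls, without overlap (edgeR adjusted p = 0.094). *Myc* fell by 1.61 on the log2 scale in *Myc* KO kidneys (edgeR adjusted p = 8.8e-05). Proximal tubule markers summed to 8051 to 14735 CPM across the kidneys, and lymphocyte markers to at most 2.21 CPM.

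A core of the element that NRF2 binds is written TGACNNNGC, and this form alone was used. It was searched on both strands in windows that run from 250 bases before to 50 after a gene's start in RefSeq (build GRCm38.p6). Windows were held for 7 of the 10 genes, 9 windows in all because *Txnrd1* had 3, and no window was held for *Gclc*, *Hmox1* or *Gsr*. The core was in 4 of the 9 windows, 1 each of *Nfe2l2*, *Gclm*, *Txnrd1* and *Srxn1*, and in 4071 of all 32851 windows (12.4%). A link between the core and the way genes vary across kidneys was not tested. The 4 windows shown are those that held the core. They are printed 5′ to 3′ on the gene's strand, with the core in capitals.
Nfe2l2: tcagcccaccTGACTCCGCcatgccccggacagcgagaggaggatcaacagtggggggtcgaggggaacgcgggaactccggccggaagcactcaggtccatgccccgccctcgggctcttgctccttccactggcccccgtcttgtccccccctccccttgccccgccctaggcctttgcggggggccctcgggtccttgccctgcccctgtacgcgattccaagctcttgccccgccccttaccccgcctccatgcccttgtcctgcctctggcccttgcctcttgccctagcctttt
Gclm: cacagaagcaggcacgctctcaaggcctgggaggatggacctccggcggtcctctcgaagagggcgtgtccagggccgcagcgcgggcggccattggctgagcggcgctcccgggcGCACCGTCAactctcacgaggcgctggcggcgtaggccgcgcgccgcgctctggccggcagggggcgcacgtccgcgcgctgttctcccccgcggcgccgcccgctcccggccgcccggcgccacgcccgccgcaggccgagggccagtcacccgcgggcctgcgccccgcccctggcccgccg
Txnrd1: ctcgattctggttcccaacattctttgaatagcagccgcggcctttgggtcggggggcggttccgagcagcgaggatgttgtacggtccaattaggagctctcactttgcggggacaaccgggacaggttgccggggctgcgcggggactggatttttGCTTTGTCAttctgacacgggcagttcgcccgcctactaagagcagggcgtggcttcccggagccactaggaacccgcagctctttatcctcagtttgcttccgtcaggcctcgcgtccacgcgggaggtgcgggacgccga
Srxn1: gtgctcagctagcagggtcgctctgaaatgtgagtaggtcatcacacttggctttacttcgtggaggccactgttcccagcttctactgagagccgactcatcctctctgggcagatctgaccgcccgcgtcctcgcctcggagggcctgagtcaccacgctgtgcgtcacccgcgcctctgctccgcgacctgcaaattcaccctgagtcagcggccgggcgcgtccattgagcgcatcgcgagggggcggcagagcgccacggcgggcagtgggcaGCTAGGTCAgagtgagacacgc
The windows are chr2:75704614-75704913 for *Nfe2l2* on the minus strand, and chr3:122245307-122245606 for *Gclm*, chr10:82858956-82859255 for *Txnrd1* and chr2:152105274-152105573 for *Srxn1* on the plus strand. The core began 240 bases before the start of *Nfe2l2*, 134 before that of *Gclm* and 92 before that of *Txnrd1*, and 28 bases after the start of *Srxn1*. It read in the direction of the gene for *Nfe2l2* and on the opposite strand for the other genes. The match is of letters alone, and sites written otherwise were not looked for in any window, so that their absence was not shown. The windows of *Slc7a11*, *Nqo1* and *Osgin1* without the core are also too short to speak about elements farther away.

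On a per-length scale, CPM divided by kilobases of exon, the most abundant of the 10 mRNAs was *Srxn1*, sulfiredoxin, which repairs over-oxidized peroxiredoxins. It had 352 ± 117 per-length units (SD, n = 18) and was above *Gclc*, the next, in 18 of 18 kidneys, although their ranges overlapped. *Gclc*, the catalytic subunit of the enzyme that limits glutathione synthesis, had 205 ± 34.3 units. *Gsr*, which recycles oxidized glutathione, had 179 ± 23.5 units, *Hmox1*, which opens the heme ring, had 176 ± 68.0, and *Txnrd1*, thioredoxin reductase, had 138 ± 25.3. *Gsr* was above *Hmox1* in only 9 of 18 kidneys, so this pair had no order. *Nqo1*, a quinone reductase, had 96.5 ± 26.1 units, *Gclm*, the modifier subunit of the glutathione enzyme, had 75.1 ± 14.3, and *Nfe2l2* itself had 66.6 ± 10.2. *Osgin1*, a growth inhibitor that responds to oxidative stress, followed with 39.3 ± 25.3. *Slc7a11*, the cystine carrier that feeds glutathione synthesis, stood apart at 0.83 ± 0.31 units, with 75 to 487 counts per kidney, and it was the only gene whose range did not overlap that of its neighbour. The genes also differed in spread. Across the 18 kidneys *Osgin1* ran over a 12.4-fold range of CPM, from 24.3 to 301, and *Gsr* over a 1.56-fold range, from 384 to 598. *Gclm* shares 296 exon bases with *Gm17494* on the opposite strand and 244 with the pseudogene *Gm6061* on the same strand, so its counts are uncertain where these overlap. The counting column ignores strand, and strand would not separate *Gclm* from *Gm6061* in any case. The other 9 genes shared no exon bases with another gene.

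**Figure D1:**
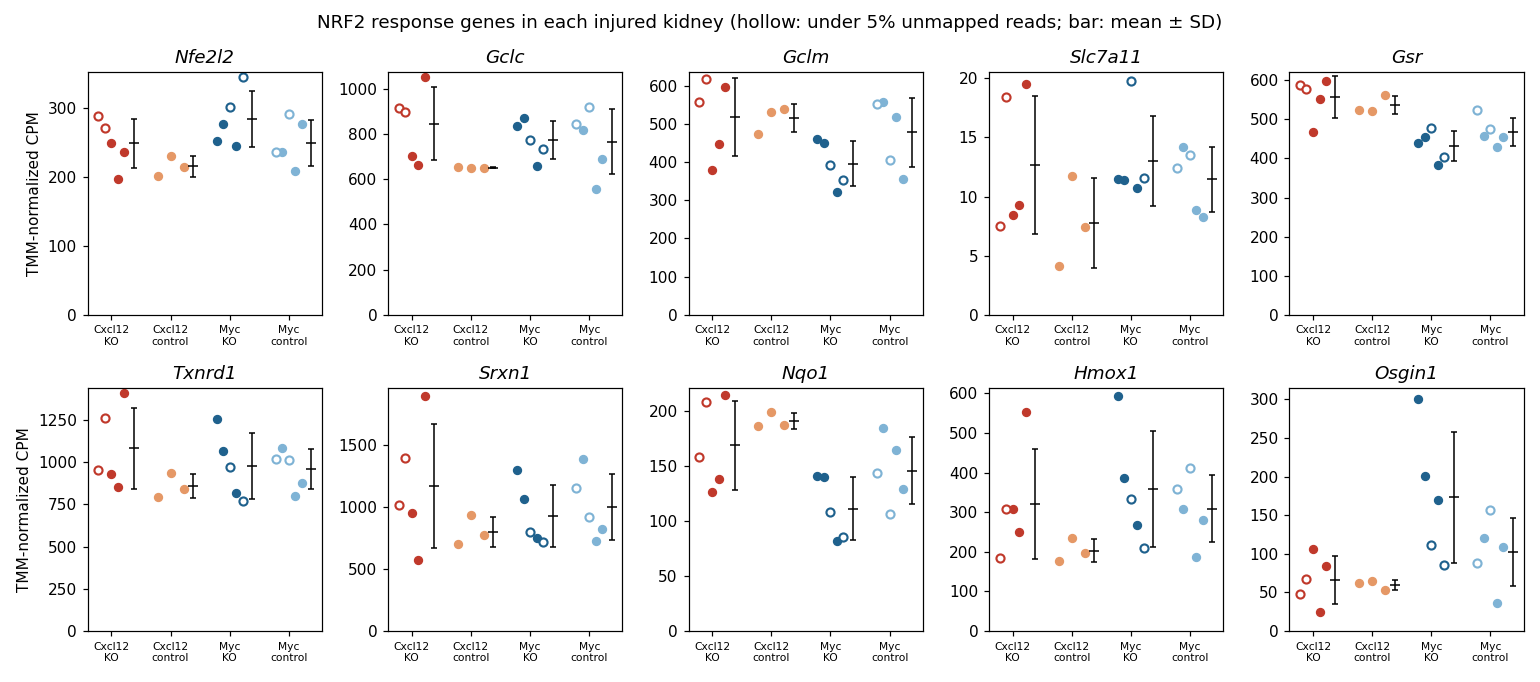
Normalized CPM ( y axis, each panel on its own linear scale from 0) of the 10 genes in each kidney of the 4 groups. Hollow points are the 6 kidneys with under 5% unmapped reads, and black bars give the mean ± SD. *Gclc* in *Cxcl12* KO kidneys (659.9 to 1049 CPM) sat above the 3 controls (649.6 to 652 CPM), and the other panels of that cohort overlapped.

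None of the 10 genes passed an adjusted p of 0.05 in *Cxcl12* KO against *Cxcl12* control kidneys. By edgeR's quasi-likelihood test 0 of 15154 genes passed (0%), and 1976 genes (13.0%) had an unadjusted p under 0.05, *Gclc* and *Hmox1* among them. DESeq2 called 353 genes and limma voom 0, again with 0 of the 10. The fitted change was above 0 for 9 of the 10, with a median of 0.27 on the log2 scale against 0.00083 over all genes tested. In bulk kidney RNA, fewer cells of a type and less RNA per cell cannot be told apart.

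In glutathione synthesis, *Gclc* had 915, 895, 702, 659.9 and 1049 CPM in the 5 *Cxcl12* KO kidneys and 652, 651 and 649.6 CPM in the 3 controls. Every KO kidney lay above every control, the lowest by a narrow margin, and the controls were nearly equal. The log2 fold change was 0.37 (SE 0.15, edgeR adjusted p = 0.34), and an exact two-sided permutation test gave p = 0.036, the smallest that 5 against 3 kidneys allow. Groups that do not overlap occurred in 1467 of 15154 genes (9.68%), and *Gclc* was 1 of 10 among the NRF2 genes. Its partner subunit *Gclm* had 556, 616, 378, 446 and 596 CPM in KO and 474, 532 and 539 CPM in control kidneys. The KO kidneys lay on both sides of the controls, and the log2 fold change was 0.01 (SE 0.16, edgeR adjusted p = 0.99).

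*Slc7a11* had 7.48, 18.4, 8.48, 9.27 and 19.5 CPM in *Cxcl12* KO and 4.15, 11.7 and 7.41 CPM in control kidneys. KO kidneys 2 and 5 were above all controls and the other KO kidneys fell among them. The log2 fold change of *Slc7a11* was 0.70 (SE 0.39, edgeR adjusted p = 0.47), and without control kidney 2 or 1 it was 1.13 or 0.40. *Gsr* had 466 to 598 CPM in KO and 522 to 562 CPM in control kidneys, with a log2 fold change of 0.05 (SE 0.10, edgeR adjusted p = 0.87).

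For the thioredoxin branch, *Srxn1* had 1012, 1393, 955, 573 and 1891 CPM in the *Cxcl12* KO kidneys and 699, 931 and 770.0 CPM in controls. The KO kidneys held both the lowest and the highest value of all 18, and 4 of 5 were above every control. The log2 fold change of *Srxn1* was 0.54 (SE 0.30, edgeR adjusted p = 0.47), and without KO kidney 5 or 4 it was 0.29 or 0.71. *Txnrd1* had 956, 1262, 932, 854 and 1407 CPM in KO and 794, 936 and 842 CPM in control kidneys. All 5 KO values of *Txnrd1* were above the lowest 2 controls, 3 were above all of them, and the log2 fold change was 0.33 (SE 0.17, edgeR adjusted p = 0.42), or 0.22 without KO kidney 5.

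*Hmox1* had 186, 308, 307, 251 and 554 CPM in *Cxcl12* KO and 177, 235 and 197 CPM in control kidneys. Only KO kidney 1 fell among the controls, and KO kidney 5 was far above the rest. The log2 fold change of *Hmox1* was 0.65 (SE 0.28, edgeR adjusted p = 0.37), and without KO kidney 5 it was 0.36. Within the 12 kidneys with the higher unmapped share, where 3 KO met 3 control kidneys, *Hmox1* was higher in each KO kidney and the mean log2 CPM difference was 0.79. *Nqo1* was the gene with a change below 0. It had 158, 208, 126, 138 and 214 CPM in KO and 186, 199 and 187 CPM in control kidneys, KO values lay on both sides, and the log2 fold change was -0.18 (SE 0.17, edgeR adjusted p = 0.67), or -0.094 without KO kidney 3. *Osgin1* (0.13, SE 0.35) and *Nfe2l2* (0.20, SE 0.12) had edgeR adjusted p-values of 0.91 and 0.51. *Nfe2l2* had 197 to 288 CPM in KO and 201 to 231 CPM in control kidneys. Both kidneys of this cohort with the lower unmapped share were KO kidneys, and fitted on the 3 KO and 3 control kidneys with the higher share *Nfe2l2* had a log2 fold change of 0.068. In those 6 kidneys the mean differences of the other genes were 0.27 for *Gclc*, -0.14 for *Gclm*, 0.35 for *Srxn1*, 0.28 for *Txnrd1*, 0.69 for *Slc7a11*, -0.30 for *Nqo1*, 0.0059 for *Osgin1* and 0.00081 for *Gsr*, and *Gclc*, like *Hmox1*, was higher in each KO kidney.

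Marker lists of injury and of cell types were read in the same kidneys. All 8 tubular injury markers had a fitted change above 0, with a median log2 fold change of 0.51, and their summed level was 14646 to 22735 CPM in KO and 11952 to 13293 CPM in control kidneys. Neutrophil markers summed to 28.9 to 122 CPM in KO and 17.6 to 25.1 CPM in control kidneys. None of the markers of either list passed the adjusted test, 4 of 8 and 5 of 5 tested had an unadjusted p under 0.05, and their part in the values of the NRF2 genes was not tested. Macrophage markers, which come from cells that also make *Hmox1*, summed to 66.9 to 95.8 CPM in KO and 77.7 to 97.5 CPM in control kidneys, and 6 of 6 had a fitted change below 0. All 8 proximal tubule markers were also below 0, with a median of -0.19. *Cubn*, an endocytic receptor, had -0.45 and *Lrp2*, its partner megalin, -0.28 (edgeR adjusted p = 0.36 and 0.38), and the list summed to 8840 to 12532 CPM in KO and 9600 to 14735 CPM in control kidneys. Of the fibroblast and pericyte markers 4 of 5 were below 0, with the collagens *Col1a1* at -0.72 and *Col1a2* at -0.51 (edgeR adjusted p = 0.22 and 0.24). The part of these cells in the values of the NRF2 genes was not tested either.

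**Figure D2:**
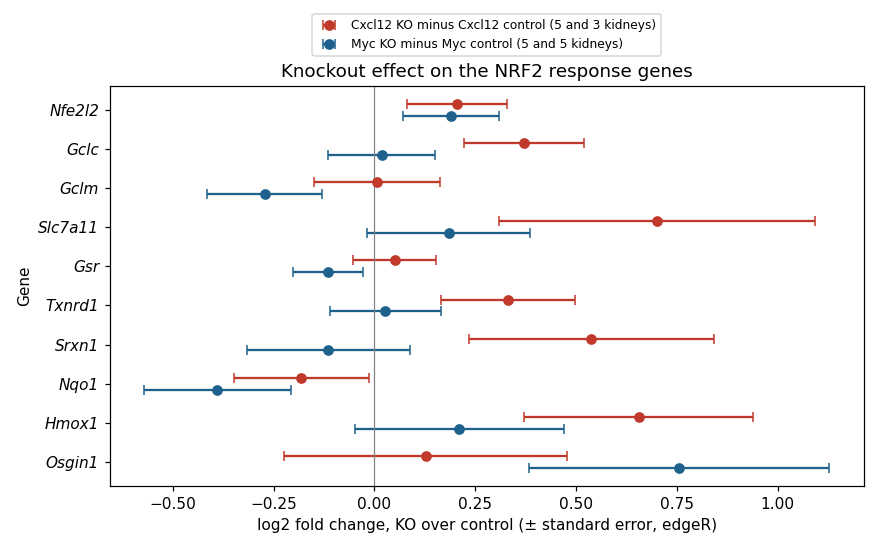
Fitted log2 fold change of KO over control kidneys (x axis) for each gene (y axis), with bars of 1 standard error, for the *Cxcl12* cohort in red and the *Myc* cohort in blue. In the *Cxcl12* cohort 9 of 10 points lie above 0 and in the *Myc* cohort 6 of 10, and no gene passed an adjusted p of 0.05 in either.

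In *Myc* KO against *Myc* control kidneys edgeR called 246 of 14936 genes (1.65%), 53 higher and 193 lower, and none of the 10 was among them. None of the 10 had an unadjusted p under 0.05, against 3268 of all genes tested (21.9%). DESeq2 called 1131 genes and limma voom 215, with 0 of the 10 in both. Their fitted changes were above 0 for 6 and below 0 for 4, with a median of 0.023 against -0.00083 over all genes. KO and control kidneys overlapped for all 10 genes, where 891 of all genes tested (5.97%) did not overlap.

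The widest fitted change was that of *Osgin1*. It had 301, 201, 111, 169 and 84.9 CPM in the *Myc* KO kidneys and 88.8, 121, 157, 36.0 and 109 CPM in controls. KO kidneys 1, 2 and 4 were above every control, kidneys 3 and 5 fell among them, and the log2 fold change was 0.76 (SE 0.37, edgeR adjusted p = 0.26), or 0.46 without KO kidney 1. This value was unequal between the classes of unmapped share. With the higher share, 3 KO kidneys lay above all 3 controls by a mean of 1.47 log2 units, and with the lower share 2 KO and 2 control kidneys overlapped with a mean difference of -0.28. Fitted on the 3 KO and 3 control kidneys with the higher share alone, *Osgin1* had a log2 fold change of 1.34 with an edgeR adjusted p of 0.11, the lowest of the 10 genes in any of 98 fits.

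*Nqo1* had 141, 139, 108, 81.6 and 85.2 CPM in *Myc* KO and 143, 185, 106, 165 and 129 CPM in control kidneys. All 5 KO kidneys were below the control mean and 2 were below every control. The log2 fold change of *Nqo1* was -0.39 (SE 0.18, edgeR adjusted p = 0.23), and the difference of mean log2 CPM was -0.43 and -0.36 in the kidneys with the higher and the lower unmapped share. *Gclm* was the other gene whose KO kidneys all lay below the control mean. It had 459.8, 449, 391, 322 and 354 CPM in *Myc* KO and 552, 557, 406, 517 and 357 CPM in control kidneys, with a log2 fold change of -0.27 (SE 0.14, edgeR adjusted p = 0.28).

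*Hmox1* had 593, 387, 333, 268 and 210.1 CPM in *Myc* KO and 358, 309, 412, 188 and 279 CPM in control kidneys, with KO kidney 1 above every control. The log2 fold change of *Hmox1* was 0.21 (SE 0.26, edgeR adjusted p = 0.66), with mean differences of 0.64 and -0.54 in the kidneys with the higher and the lower unmapped share. Without KO kidney 1 the fitted change was -0.05. *Nfe2l2* had 252, 276, 301, 245 and 344 CPM in *Myc* KO and 235, 235, 291, 208 and 276 CPM in control kidneys, a log2 fold change of 0.19 (SE 0.12, edgeR adjusted p = 0.36), or 0.11 without KO kidney 5. *Gclc*, *Txnrd1* and *Srxn1* had log2 fold changes of 0.02 (SE 0.13), 0.03 (SE 0.14) and -0.11 (SE 0.20) over all 10 kidneys, and these values joined opposite signs in the classes of unmapped share. The mean difference was 0.20 with the higher and -0.23 with the lower share for *Gclc*, 0.18 and -0.23 for *Txnrd1*, and 0.11 and -0.45 for *Srxn1*. In the 4 kidneys with the lower share both KO kidneys lay below both controls for these 3 genes, for *Gclm* and for *Hmox1*, and above them for *Nfe2l2*. *Gsr* (-0.12, SE 0.086) and *Slc7a11* (0.18, SE 0.20) completed the 10, with edgeR adjusted p-values of 0.45 and 0.62. The mean differences with the higher and the lower share had the same sign for *Nfe2l2* (0.11 and 0.30), *Gclm* (-0.21 and -0.35), *Gsr* (-0.074 and -0.19) and *Slc7a11* (0.14 and 0.22).

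In this cohort the neutrophil markers summed to 130.2 to 239.7 CPM in KO and 44.7 to 206 CPM in control kidneys, and the tubular injury markers to 17278 to 26523 CPM and 14839 to 23467 CPM. The injury markers went both ways, with 5 of 8 above 0, *Lcn2* at 0.39 and *Havcr1*, the kidney injury molecule, at -1.32 (edgeR adjusted p = 0.27 and 0.12). All 5 endothelial markers were above 0, with *Cdh5* at 0.57 and *Kdr* at 0.48 (edgeR adjusted p = 0.12 for both), and they summed to 587 to 808 CPM in KO and 434 to 713 CPM in control kidneys. All 5 podocyte markers were above 0 as well, with sums of 723 to 822 CPM and 428 to 745 CPM. None of these 4 lists held a gene that passed the adjusted test, and their part in the values of the NRF2 genes was not tested.

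The difference between the 2 KO effects was fitted over all 18 kidneys. It called 11 of 15903 genes (0.0692%), none of them among the 10, and DESeq2 and limma voom called 324 and 3, again without any of the 10. The *Myc* effect minus the *Cxcl12* effect ran from -0.66 (SE 0.39) for *Srxn1* to 0.62 (SE 0.58) for *Osgin1*, and edgeR's adjusted p from 0.56 to 0.99. No unadjusted p among the 10 was under 0.05. With 2 standard errors to either side, the difference for *Gclc* reached from -0.78 to 0.06 and that for *Srxn1* from -1.43 to 0.12, so that a sizeable difference in either gene was not detectable here rather than absent.

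Between the injured control kidneys of the cohorts edgeR called 316 of 15903 genes (1.99%) and none of the 10, with 0 of the 10 at an unadjusted p under 0.05, while DESeq2 and limma voom called 801 and 249 genes. *Gsr* had the lowest adjusted p of the 10, with a log2 fold change of -0.20 (SE 0.096, edgeR adjusted p = 0.30). *Nqo1* was 1 of 10 whose control groups did not overlap, as did those of 1926 of 15903 genes (12.1%). All 5 *Myc* controls (106 to 185 CPM) lay below all 3 *Cxcl12* controls (186 to 199 CPM), with a log2 fold change of -0.39 (SE 0.21, edgeR adjusted p = 0.33) and an exact two-sided permutation p of 0.036, the smallest possible. *Hmox1* and *Osgin1* had log2 fold changes of 0.61 (SE 0.33) and 0.77 (SE 0.45) toward the *Myc* controls, with edgeR adjusted p-values of 0.35 and 0.39. Allele, litter and handling cannot be told apart between these groups, and 0 of the *Cxcl12* but 2 of the *Myc* controls had the lower unmapped share.

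Kidneys of the same group differed from each other, and they did so together for most of the 10 genes. Each value was taken as its log2 CPM minus the mean of its group, and the 45 pairs of genes were compared over the 18 kidneys, with kidneys permuted within groups 100000 times. Of the 45 Pearson correlations 42 were above 0, their median was 0.48, and 17, all positive, had a permutation p under 0.05 after Benjamini-Hochberg adjustment over the 45 pairs. Over 94772028 pairs of all genes with at least 1 CPM the median r was -0.002, with 49.8% of the pairs above 0 and 9.20% above 0.48. The lowest r of the 17 pairs was 0.64, and 3.06% of all pairs were at or above it. In the 12 kidneys with the higher unmapped share the median of the 45 was 0.60, in the other 6 it was 0.40, in the *Cxcl12* cohort 0.53 and in the *Myc* cohort 0.39. Of all 45 pairs 44, 33, 43 and 40 were above 0 in these 4 subsets, in the same order. The 17 pairs were above 0 in each of them, but they were chosen by their r over the same 18 kidneys, so this is no separate support. For the unmapped classes the deviations were kept from the mean of the whole group and not recentred within a class. Differences between classes and between groups thus enter the r given for the 12 and the 6 kidneys.

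The closest pair was *Srxn1* and *Txnrd1*, both of the thioredoxin branch. Pearson's r was 0.92 and Spearman's rho 0.94 (permutation p = 1e-05 for both, the smallest possible, adjusted p = 0.00045). Without the 2 kidneys farthest from the median of *Srxn1*, r was 0.92. In each pair here these 2 kidneys were set by the first gene named alone, so they can differ between pairs and need not be outliers. Within the 12 and the 6 kidneys of the unmapped classes r was 0.95 and 0.84. *Nqo1* and *Gclm* followed with r = 0.86 and rho = 0.85 (permutation p = 0.00034 and 0.00031, adjusted p = 0.0051 for r), r = 0.85 without the 2 kidneys, and 0.93 and 0.91 within the classes. *Hmox1* and *Txnrd1* had r = 0.86 and rho = 0.86 (permutation p = 0.00011 and 0.00014, adjusted p = 0.0025 for r), with 0.76 without the 2 kidneys and 0.91 and 0.81 within the classes. *Gclc* and *Txnrd1* had r = 0.78 and rho = 0.76 (permutation p = 0.00082 and 0.0029, adjusted p = 0.0092 for r), with 0.73 without the 2 kidneys and 0.91 and 0.57 within the classes.

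*Txnrd1* took part in 7 of the 17 pairs and *Srxn1* in 6, *Gclc*, *Gclm* and *Hmox1* in 4 each, *Nqo1* and *Osgin1* in 3 each, *Gsr* in 2 and *Slc7a11* in 1. *Nfe2l2*, the gene of the factor itself, was in none of its 9 pairs, and its median r was 0.13, from -0.23 with *Nqo1* to 0.43 with *Gclc*. Its r changed sign between the *Cxcl12* and the *Myc* cohort with *Gclm* (0.45 and -0.51) and *Nqo1* (0.31 and -0.54). The same held with *Srxn1* (0.53 and -0.27) and *Txnrd1* (0.34 and -0.18). Signs were kept with *Gclc* (0.52 and 0.37), *Osgin1* (0.49 and 0.034) and *Slc7a11* (0.20 and 0.25). They were also kept with *Gsr* (0.14 and 0.18) and *Hmox1* (-0.15 and -0.040). No test compared the cohorts. In the 6 kidneys with the lower unmapped share all 9 pairs of *Nfe2l2* were below 0, down to -0.83 with *Gsr*. In the 12 kidneys with the higher share they ran from -0.16 with *Gclm*, which alone was below 0, to 0.57 with *Osgin1*. The deviations were not recentred within the classes, so these values are not correlations among kidneys of the same group alone. The 2 subunits of the glutathione enzyme were a moderate pair, with r = 0.52 and rho = 0.54 between *Gclc* and *Gclm* (permutation p = 0.086 and 0.064, adjusted p = 0.15 for r). For this pair r was 0.71 without the 2 kidneys farthest from the median of *Gclc*, and 0.60 and 0.048 within the classes. *Osgin1* varied with *Hmox1* (r = 0.73, rho = 0.74, permutation p = 0.0047 and 0.0029, adjusted p = 0.028 for r). Here r was 0.69 without the 2 kidneys farthest from the median of *Hmox1*, and 0.71 and 0.78 within the classes.

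**Figure D3:**
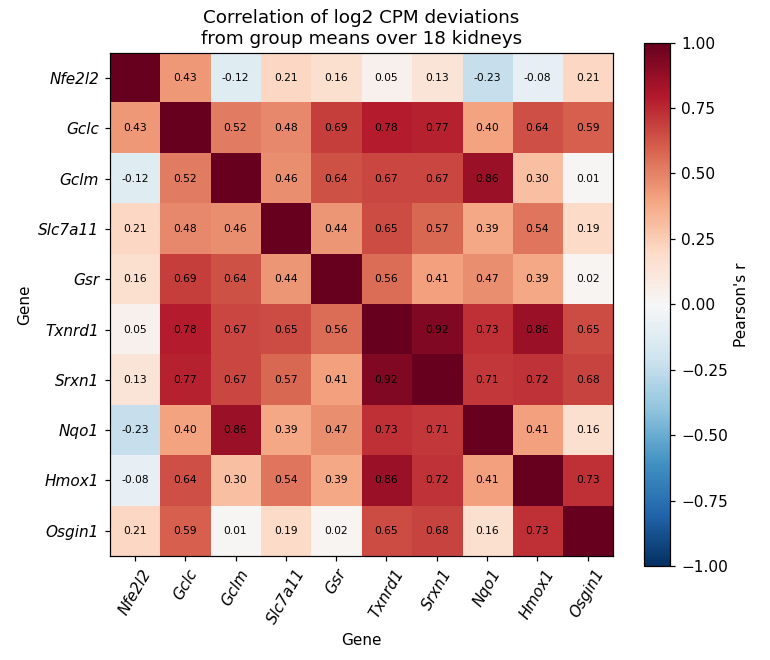
Pearson's r between each pair of the 10 genes (both axes) over the 18 kidneys, from log2 CPM minus the mean of each group, with red for positive and blue for negative values. *Srxn1* and *Txnrd1* (0.92) were the closest pair, and the row of *Nfe2l2* is pale throughout, from -0.23 to 0.43.

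The same deviations were also read by kidney. The mean deviation of the 10 genes was highest in *Cxcl12* KO kidney 5 (0.43 log2 units, 9 of 10 genes above the group mean) and *Myc* KO kidney 1 (0.31, 8 of 10), and lowest in *Cxcl12* KO kidney 4 (-0.42, 0 of 10) and *Myc* control kidney 4 (-0.35, 2 of 10). *Cxcl12* KO kidney 2 had 10 of 10 genes above its group mean.

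**Figure D4:**
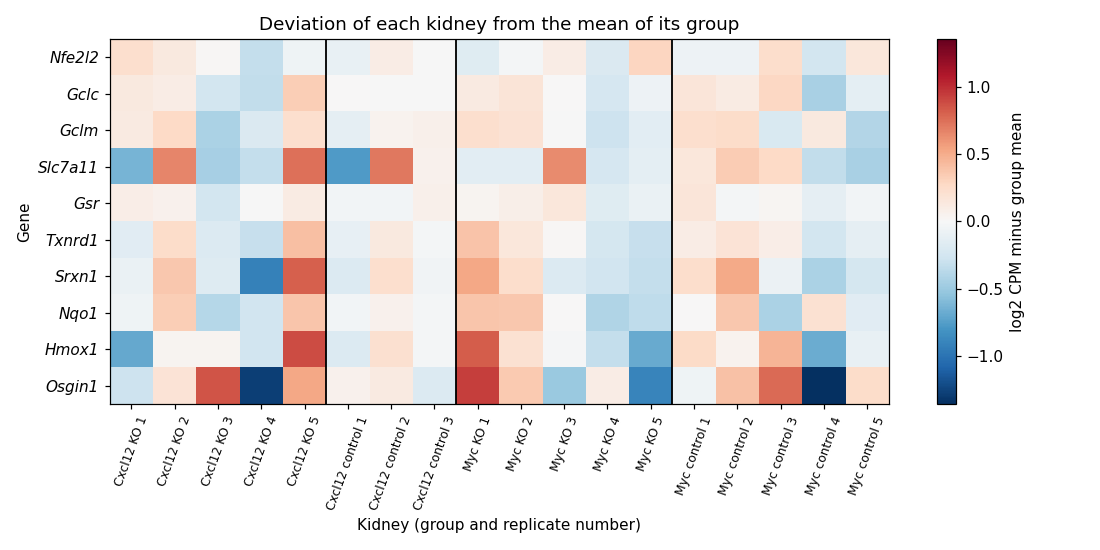
Deviation of each kidney (x axis, by group and replicate number) from the mean of its group in log2 CPM (colour) for each gene (y axis). Columns such as *Cxcl12* KO 5 and *Myc* KO 1 are mostly red and columns such as *Cxcl12* KO 4 and *Myc* control 4 mostly blue, with mean deviations of 0.43, 0.31, -0.42 and -0.35.

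Marker lists of cell types were set beside this shared variation as a description over the same 18 kidneys. The summed log2 level of the tubular injury list had r = -0.49 (rho = -0.47) with the mean deviation of the 10 genes. For this list r was -0.34 without the 2 kidneys farthest from the median and -0.61 in the 12 kidneys with the higher unmapped share. The genes of the list went both ways, from r = -0.54 for *Spp1*, osteopontin, to 0.42 for *Krt8* and 0.51 for *Krt20*, both keratins, with 0.088 for *Havcr1* and -0.24 to -0.020 for the other 4. For the other 9 lists r lay between -0.44 (erythroid) and 0.22 (proximal tubule), with 0.14 for macrophages and -0.28 for neutrophils. These values moved too. Without 2 kidneys r went from 0.12 to 0.58 for lymphocytes, from -0.22 to -0.45 for the loop, distal and collecting duct, and from -0.44 to -0.26 for the erythroid list. In the 12 kidneys it was -0.47 for endothelium (-0.29 over all 18) and -0.43 for neutrophils.

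Among 13758 further genes, the 5 most like the mean deviation of the 10 were *Fosl1* (r = 0.90, rho = 0.88), an AP-1 subunit, *Impact* (r = 0.90, rho = 0.89), a regulator of the kinase GCN2, *Sqstm1* (r = 0.89, rho = 0.89), the p62 protein that binds KEAP1, *B4galnt3* (r = 0.89, rho = 0.83), a sugar transferase, and *Vps37b* (r = 0.87, rho = 0.87), an ESCRT subunit. They were chosen for this likeness, over 18 kidneys. *Sqstm1* had 1569, 2391, 1674, 1186 and 2871 CPM in *Cxcl12* KO, and 1106, 2059 and 1809.7 CPM in *Cxcl12* control kidneys. In the *Myc* cohort it had 2658, 1959, 1217, 1268 and 1105 CPM in KO and 2343, 2257, 1669.97, 1501 and 1508 CPM in control kidneys. Its highest values were in *Cxcl12* KO kidney 5 and *Myc* KO kidney 1, and its lowest in *Myc* KO kidney 5 and *Cxcl12* control kidney 1.

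The wider pathway was read from 79 further genes in 8 lists. For *Cxcl12* KO, 0 of 76 tested passed edgeR's adjusted test and 13 had an unadjusted p under 0.05 (13.0% of all genes), and 35 had a fitted change above 0 (median -0.028). DESeq2 called 3 of the 76, *Akr1b8*, *Glrx* and *Ephx1* (adjusted p = 0.00039, 0.0081 and 0.049), where it called 353 of all 15154 genes, and limma voom called 0. In the *Myc* cohort edgeR called 1 of 76, where 1.65% of all genes were called, and 28 had an unadjusted p under 0.05 (21.9% of all genes). DESeq2 called 10 of the 76, where it called 1131 of all 14936 genes. Of the 10, *Bach1* was higher and *Gstp1*, *Tkt*, *Cbr3*, *Asns*, *Prdx3*, *Cbr1*, *Psat1*, *Abcc4* and *Prdx6* were lower (adjusted p from 0.0014 for *Tkt* to 0.047 for *Prdx6*), and limma voom called 0. In the *Myc* cohort 58 of the 76 were below 0, with a median log2 fold change of -0.18 against -0.00083 over all genes. For the difference of the effects 0 of 77 were called and 12 had an unadjusted p under 0.05 (11.4% of all genes). DESeq2 called 3 of the 77, *Akr1b8*, *Psat1* and *Asns* (adjusted p = 0.012, 0.012 and 0.042), where it called 324 of all 15903 genes, and limma voom called 0.

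The gene called by edgeR was *Gstp1*, a glutathione transferase. It had 88.0, 77.4, 74.6, 58.9 and 57.1 CPM in the *Myc* KO kidneys and 99.6, 128, 93.2, 143 and 95.9 CPM in the controls. Every *Myc* KO kidney was below every control, and *Gstp1* was lower by a log2 fold change of -0.65 (SE 0.15, edgeR adjusted p = 0.0497). It passed under 7 of 21 alternatives, with adjusted p from 0.0022 with DESeq2 to 0.13 without *Myc* KO kidney 4, and with log2 fold changes from -0.74 to -0.55. *Gstp2* is a near-identical copy, and reads that fit both genes were not counted, so both are uncertain. At 0.65 ± 0.25 CPM in KO (SD, n = 5) and 1.01 ± 0.46 CPM in control kidneys (SD, n = 5), *Gstp2* had -0.66 (SE 0.37, edgeR adjusted p = 0.31). Of the 13 transferases and conjugate exporters tested, 10 were below 0 in each cohort, with medians of -0.31 for *Myc* KO and -0.25 for *Cxcl12* KO.

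A list of 6 enzymes held *G6pdx*, *Pgd*, *Me1* and *Idh1*, which make NADPH, the reductant for *Gsr* and *Txnrd1*, and *Tkt* and *Taldo1* of the non-oxidative pentose phosphate branch, which make none. All 6 were below 0 in *Myc* KO kidneys, with a median log2 fold change of -0.18. *Tkt*, transketolase, had 278 to 324 CPM in KO and 351 to 427 CPM in control kidneys without overlap (log2 fold change -0.32, SE 0.079, edgeR adjusted p = 0.063), and *G6pdx*, which starts the pentose phosphate pathway, had -0.22 (SE 0.082, adjusted p = 0.16). After loss of *Cxcl12*, 3 of these 6 were below 0 (median -0.014), with *Idh1* at -0.20 and *Taldo1* at 0.26 (edgeR adjusted p = 0.47 and 0.40). In the glutathione and thioredoxin list 14 of 15 were below 0 in the *Myc* cohort (median -0.21) and 11 of 15 in the *Cxcl12* cohort (median -0.095). *Prdx1*, a peroxiredoxin that *Srxn1* repairs, had -0.35 and *Gpx4*, which reduces lipid peroxides, -0.32 in the *Myc* cohort (edgeR adjusted p = 0.16 and 0.25), while in the *Cxcl12* cohort *Glrx*, glutaredoxin, had 0.90 and *Gpx4* -0.24 (adjusted p = 0.15 and 0.38).

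Detoxifying oxidoreductases were below 0 for 8 of 9 in the *Myc* cohort (median -0.25), led by the carbonyl reductases *Cbr3* (-0.72, SE 0.17, edgeR adjusted p = 0.057) and *Cbr1* (-0.51, SE 0.15, adjusted p = 0.10). For *Cxcl12* KO, 6 of 9 were below 0 (median -0.23). There *Akr1b8*, an aldo-keto reductase, had 71.6 to 101 CPM in KO and 43.2 to 56.3 CPM in control kidneys without overlap (log2 fold change 0.68, SE 0.13, edgeR adjusted p = 0.086), and *Ephx1*, an epoxide hydrolase, had -0.90 (SE 0.27, adjusted p = 0.22). The heme and iron list, with genes of heme breakdown (*Blvra*, *Blvrb*, *Hmox2*), heme synthesis (*Fech*) and iron storage and export (*Fth1*, *Ftl1*, *Slc40a1*), had 0 of 7 above 0 in the *Myc* cohort (median -0.18), with the biliverdin reductases *Blvra* at -0.51 and *Blvrb* at -0.34 (edgeR adjusted p = 0.13 and 0.23). *Cxcl12* KO kidneys had 5 of 7 above 0, with *Blvrb* at 0.32 and *Fth1*, ferritin heavy chain, at 0.26 (adjusted p = 0.62 and 0.45).

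Regulators and partners of NRF2 had 10 of 12 above 0 in the *Cxcl12* cohort (median 0.12) and 7 of 12 in the *Myc* cohort (median 0.086). *Maff*, a small MAF partner, had log2 fold changes of 0.69 and 0.47 (edgeR adjusted p = 0.28 and 0.20), *Mafk* had 0.38 in the *Cxcl12* cohort (adjusted p = 0.36), and *Bach1*, the repressor that competes for the same elements, had 0.46 in the *Myc* cohort (SE 0.13, adjusted p = 0.083), with 84.4 to 109 CPM in KO and 51.7 to 84.1 CPM in control kidneys. Superoxide dismutases and catalase were below 0 for 3 of 4 in each cohort, with *Sod3* at -0.32 and *Sod2* at -0.17 in the *Cxcl12* cohort and *Cat* and *Sod3* at -0.18 each in the *Myc* cohort (edgeR adjusted p from 0.32 to 0.55). Targets of ATF4, a stress factor that also drives *Slc7a11*, had 6 of 10 above 0 in the *Cxcl12* cohort and 5 of 10 in the *Myc* cohort. *Psat1*, of serine synthesis, had 0.42 in the *Cxcl12* cohort and -0.44 in the *Myc* cohort (adjusted p = 0.32 and 0.11), *Chac1*, which degrades glutathione, had 0.52 in the *Cxcl12* cohort (adjusted p = 0.56), and *Asns*, asparagine synthetase, -0.63 in the *Myc* cohort (adjusted p = 0.059).

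**Figure D5:**
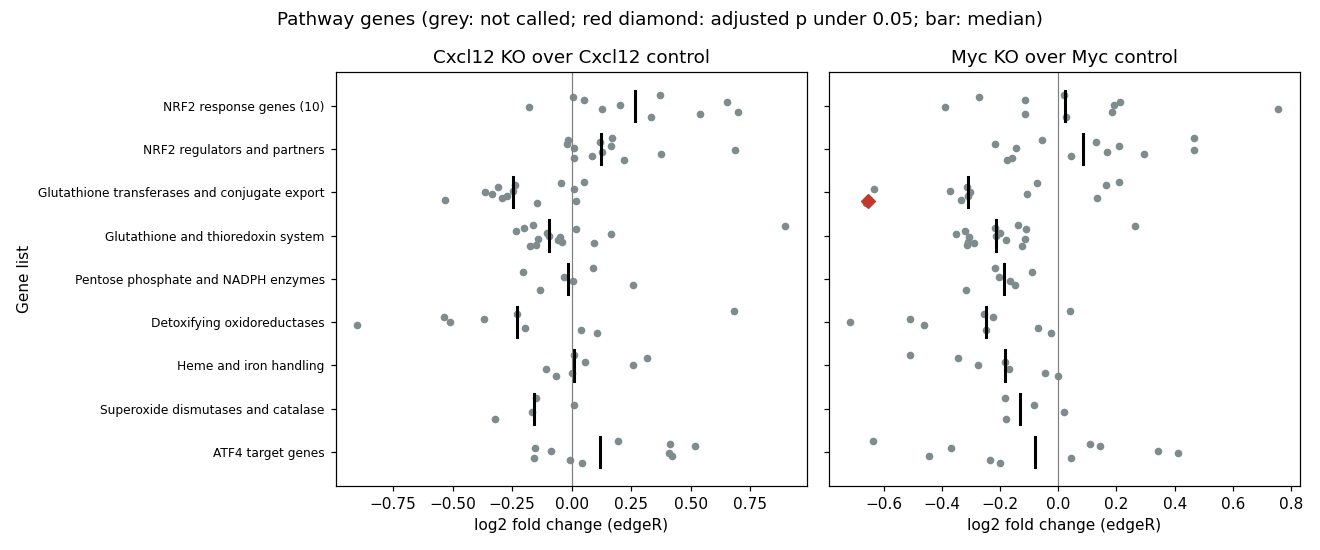
Fitted log2 fold change of KO over control kidneys (x axis) for the 10 genes and the 8 further lists (y axis), *Cxcl12* cohort on the left and *Myc* cohort on the right, each point a gene and each bar the list's median. In the *Myc* cohort 58 of 76 pathway genes lie left of 0, and *Gstp1* at -0.65, the red diamond, was the one called by edgeR.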

How the data were processed

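The authors trimmed reads with Trimmomatic 0.32, aligned them to GRCm38 with STAR 2.4.0 and deposited raw counts per gene, not normalized. The column that ignores strand was used, because the strand columns held 51.8% to 52.4% and 52.3% to 52.8% of it. Reads on several places were not counted. Symbols and exon lengths came from GENCODE vM21 (45143 IDs matched). Within a cohort, genes were kept by filterByExpr, libraries scaled by TMM, and genotypes tested with edgeR 4.0.16 (quasi-likelihood, R 4.3.3) and Benjamini-Hochberg adjustment at 0.05. CPM are TMM-normalized over all 18 kidneys, and log2 CPM used a prior count of 2. The standard error is the log2 fold change divided by the square root of F. Alternatives used DESeq2 1.42.0 and limma 3.58.1, and the fit was tested on simulated data. Correlations used numpy 2.4.6 and scipy 1.17.1, on Python 3.11.15.

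The 10 genes and the lists were chosen with earlier results of these data known. Pathway genes named for a change were taken from those with an adjusted p under 0.05 and the 2 with the largest absolute change per list and cohort. The 5 most similar in pattern were named too. Marker genes of cell types and injury were named outside this rule. The labels do not say whether equal replicate numbers pair kidneys, and the main fits took them as unpaired. In the *Cxcl12* cohort equal numbers correlated at a mean r of 0.068 (3 pairs, -0.032 to 0.13) and different numbers at -0.017 (12 pairs, -0.13 to 0.19). In the *Myc* cohort these means were 0.053 (5 pairs, -0.21 to 0.40) and -0.011 (20 pairs, -0.52 to 0.48). So few equal pairs cannot decide whether numbers pair kidneys. Littermates are named in the study, but which kidneys share a litter is not given in the sources used here. The study calibrated for batches that no label names.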

Additional observations from a re-analysis of the deposited data

Results flagged for a closer look

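In the *Myc* KO group, *Slc7a11* was 19.8 CPM in kidney 3, far from the next highest at 11.5 CPM, a gap of 0.91 of the group's range. This kidney was 1 of 30 groups of 5 kidneys examined for the 10 genes in which an end kidney stood apart, and chance gives about 1 in 20. Without kidney 3 the *Myc* effect on *Slc7a11* was -0.02 on the log2 scale in place of 0.18. Of the other 9 genes in this kidney, *Osgin1* deviated from the group mean by -0.50 and *Srxn1* by -0.18 log2 units, and the other 7 by -0.015 to 0.15.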

How the results depend on the processing

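None of the 10 genes passed an adjusted p of 0.05 in any of 98 fits, and the lowest was 0.11. Fitted changes near 0 changed sign. In the *Cxcl12* cohort *Gclm* was -0.025 with limma voom, -0.0025 with the strand column 4, -0.13 with a term for the unmapped share, -0.022 with the replicate block and -0.13 in the cohort's own kidneys among the 12 with 5% or more unmapped, where *Gsr* was -0.0062 and, in the *Myc* cohort, *Srxn1* was 0.088. *Osgin1* in the *Cxcl12* cohort was -0.046 with limma voom. The difference of effects for *Nfe2l2* was 0.0024 with strand column 3 and 0.081 with the unmapped term. Leaving out 1 kidney gave, in the *Cxcl12* cohort, *Gclm* -0.068 to 0.10 and *Osgin1* -0.11 to 0.34, in the *Myc* cohort, *Gclc* -0.077 to 0.090, *Hmox1* -0.046 to 0.35, *Srxn1* -0.27 to 0.034, *Txnrd1* -0.079 to 0.10 and *Slc7a11* -0.020 to 0.27, and for the difference *Nfe2l2* -0.10 to 0.042. The causes were not tested.

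Counts over all genes moved more. In the *Cxcl12* cohort 0 genes became 353 with DESeq2, 214 without the filter, 123 with the unmapped term, 80 in its kidneys among those 12, 25 in 1 fit of all 18 and 9 with strand column 3, and 0 to 15 with 1 kidney left out (15 without KO kidney 1). In the *Myc* cohort 246 became 1131 with DESeq2, 954 with the unmapped term, 683 in 1 fit of all 18, 18 with the replicate block and 8 in its kidneys among those 12, and 21 (without KO kidney 2) to 877 (without control kidney 3) with 1 left out. For the difference 11 became 324, 3, 4, 7, 133 and 1 with DESeq2, limma voom, strand columns 3 and 4, the unmapped term and the replicate block, and 1 (without *Cxcl12* control kidney 3) to 75 (without *Myc* KO kidney 5) with 1 left out. Between controls 316 became 801 with DESeq2 and 202 with control kidneys alone, a fit added after the data were seen, and 49 (without *Cxcl12* control kidney 1) to 611 (without *Myc* control kidney 4) with 1 left out. The replicate block called none of the 10 genes. The median of the 45 correlations was 0.48 with a prior count of 0.5 too. With 3 *Cxcl12* controls the standard errors of 0.10 to 0.39 limit what could be detected.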
